A study of Homo sapiens with 7 samples.

Results

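Day 3 cells that carried both CD13 and ROR2 on their surface were compared here with undifferentiated human embryonic stem cells (hESC), gene by gene, at the level of RNA. The comparison uses 2 of the 7 libraries of a study that followed hESC through cardiac differentiation, day 3 CD13+/ROR2+ and day 0 hESC, with 1 library each. Both groups come from a line labelled H3 hESC, read here as carrying an eGFP reporter at NKX2-5, an early heart transcription factor gene. The number in the gene name of this reporter differs between the labels of the samples. The line also carries an mCherry reporter of alpha-MHC, a cardiac myosin, and the hESC carry both reporters too. The labels name no further genotype or treatment beyond differentiation toward the heart, and they call the CD13+/ROR2+ cells mesoderm progenitors. Cells of all groups passed the sorter 2 times before RNA was taken. The CD13-/ROR2- fraction of the same day, and the day 7 and day 14 fractions sorted on the reporters, are given beside it where they place a value. With 1 library per group no difference below has a replicate check, and none was tested.

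Levels are in FPKM, sequenced fragments scaled by transcript length and library total. After small RNA and histone symbols were dropped, 21579 of 23262 genes with values remained, and 5770 of these reached 5 FPKM in hESC, in CD13+/ROR2+ or in both. Differences are given as the log2 ratio of (FPKM + 1) in CD13+/ROR2+ over hESC, which understates the change of genes of low level. A gene is called higher or lower where this ratio was at least 2 in size, that is 4-fold, and its higher library was at least 5 FPKM. Where a pair of FPKM values is given for a gene without library names, hESC comes first and CD13+/ROR2+ second, and "ratio" is this log2 ratio.

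Mesoderm forms in the embryo when epithelial cells of the epiblast pass through the primitive streak, lose their epithelial contacts and migrate away. NODAL, WNT and BMP signals drive these steps, and cells answer them with transcription factors such as EOMES, MIXL1 and the MESP genes, which in turn open the way to heart, vessel and other mesoderm fates. CD13, the aminopeptidase encoded by ANPEP, and ROR2, a receptor of the WNT family, are surface proteins that have been used to pick early mesoderm from such cultures.

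CD13+/ROR2+ cells differed from hESC by a raised set of streak, early mesoderm and definitive endoderm genes and a reduced set of pluripotency genes. Some of the endoderm genes are also known from mesoderm. In all, 232 genes were higher, 4.02% of those compared, and 138 were lower, 2.39%, so that 6.41% were called in either direction. Over all 21579 genes, including those that could not be called because they reached 5 FPKM in neither library, the higher and lower genes were 1.08% and 0.64%. Counts over all members of a list are read beside the latter pair of shares, and counts over the members that reached 5 FPKM beside the former. The median size of the log2 ratio was 3.00 among the higher genes and 2.60 among the lower ones. Of the higher genes 116 reached 3, 52 reached 4 and 12 reached 6, while of the lower genes 35 reached 3, 12 reached 4 and 0 reached 6. Just inside the limit stood SNRPN at 2.01 and PIK3R1 at 2.01, and just outside it CALM3 at 1.99. On the lower side PPAP2C (6.84 and 0.954 FPKM in hESC and CD13+/ROR2+) was just inside and GAS5 (158 and 38.8 FPKM) just outside.

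**Figure D1:**
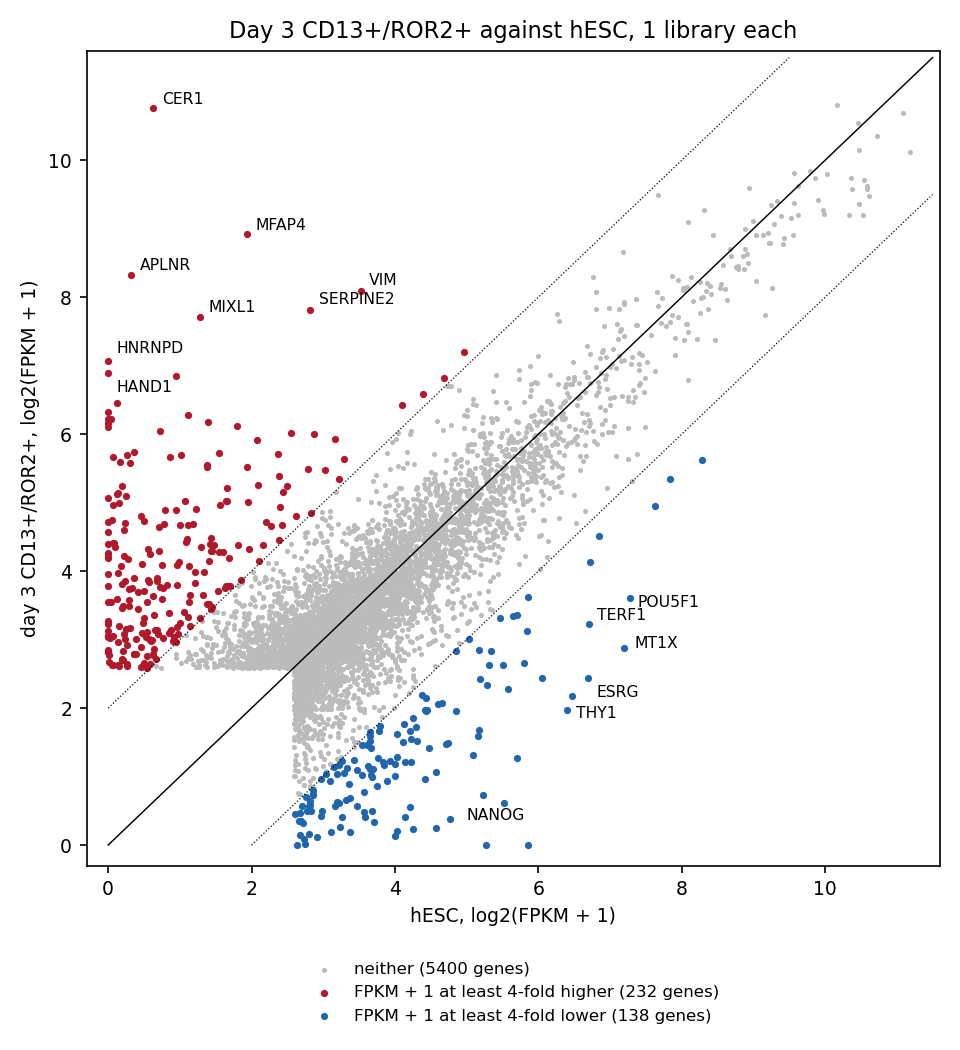
Level of each of the 5770 compared genes in the hESC library (horizontal axis) and the day 3 CD13+/ROR2+ library (vertical axis), both as log2(FPKM + 1). The solid line marks equal levels and the dotted lines 4-fold. The 232 higher genes include CER1, MFAP4, APLNR and MIXL1, and the 138 lower genes include POU5F1, TERF1 and NANOG. Points at 0 on an axis are listed at 0 in that library, as HAND1 is in hESC.

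These counts lean on the scale of the libraries. Small RNA and histone symbols held 33.8% of all FPKM in the hESC library and 13.4% in the CD13+/ROR2+ library. Scaling both libraries to an equal sum over all genes moved every ratio up by 0.48, gave 338 higher and 91 lower genes, and took the share of called genes that were higher from 62.7% to 78.8%. A pseudocount of 5 in place of 1 left 86 higher and 37 lower. Equal sums without the small RNA and histone symbols moved ratios by 0.09, and median-ratio scaling by -0.05. Steps between low values put the depth of the CD13+/ROR2+ library at about 2.65 times that of hESC. This estimate rests on the commonest ratio, shared by 117 of 3131 genes under 0.5 FPKM in both libraries. It takes that ratio as an equal number of reads, which could not be checked. The total reads behind a value are not known beyond the minimum per sample that the labels state. Of the higher genes 25 are listed at 0 in hESC, and a 0 in this table can be a failed estimate: HNRNPD, an RNA-binding protein gene used by most cells, is listed at 0 in hESC and at 133 FPKM in CD13+/ROR2+. Of the lower genes 3 are listed at 0 in CD13+/ROR2+. No fold is given against a 0.

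RNA of the sorted surface proteins and of the markers of the comparison differed in the direction of the labels. The sort selected on these proteins and the markers were given for this comparison, so this is no independent check of the labels. ANPEP was at 0.330 FPKM in hESC and 12.0 FPKM in CD13+/ROR2+, a log2 ratio of 3.29, and ROR2 at 1.12 and 20.6 FPKM, a ratio of 3.34. CER1, which encodes a secreted antagonist of NODAL, BMP and WNT, went from 0.549 to 1736 FPKM, a ratio of 10.13. It was the gene of rank 2 by level in CD13+/ROR2+ and took 1.12% of the FPKM sum of the kept genes. APLNR, the apelin receptor of migrating mesoderm, stood at 0.250 and 321 FPKM (ratio 8.01) and MIXL1, a homeobox factor of the streak, at 1.43 and 209.7 FPKM (ratio 6.44). POU5F1, which encodes the pluripotency factor OCT4, was lower, at 154 FPKM in hESC and 11.2 in CD13+/ROR2+ (ratio -3.67). In CD13-/ROR2- the same 4 markers lay between, with CER1 at 11.7, APLNR at 8.79, MIXL1 at 82.0 and POU5F1 at 64.8 FPKM.

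The upstream promoter bases of a few genes are shown because they hold letters that known regulators bind. In MIXL1, SP5 and HAND1 these are letters of NODAL or WNT signalling. In NANOG they are octamer and SOX letters, and in ASNS those of the ATF4 element. Each line gives the 250 bases before the gene's start, 5′ to 3′ on the gene's strand, from RefSeq on GRCh38.p14, a later build than the hg19 of the deposited values. Capitals mark the motif matches. The genes and motifs were chosen after their values had been seen. MIXL1, at chr1:226223414-226223663 on the plus strand, and SP5, at chr2:170715087-170715336 on the plus strand, are streak genes that were higher. HAND1, a mesoderm factor that was higher, lies at chr5:154478228-154478477 on the minus strand. NANOG, a pluripotency factor that was lower, lies at chr12:7789152-7789401 on the plus strand. ASNS, the asparagine synthetase gene, which was lower, lies at chr7:97872409-97872658 on the minus strand.
MIXL1: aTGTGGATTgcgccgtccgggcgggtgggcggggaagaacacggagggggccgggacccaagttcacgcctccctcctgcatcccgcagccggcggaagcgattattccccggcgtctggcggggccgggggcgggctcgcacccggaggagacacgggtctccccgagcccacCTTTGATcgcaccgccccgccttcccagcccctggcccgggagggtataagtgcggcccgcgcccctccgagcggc
SP5: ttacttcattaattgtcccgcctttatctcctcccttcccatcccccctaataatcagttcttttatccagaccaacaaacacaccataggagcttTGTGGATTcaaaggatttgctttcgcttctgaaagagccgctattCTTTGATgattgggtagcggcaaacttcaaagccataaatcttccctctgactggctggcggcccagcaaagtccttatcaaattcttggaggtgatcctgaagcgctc
HAND1: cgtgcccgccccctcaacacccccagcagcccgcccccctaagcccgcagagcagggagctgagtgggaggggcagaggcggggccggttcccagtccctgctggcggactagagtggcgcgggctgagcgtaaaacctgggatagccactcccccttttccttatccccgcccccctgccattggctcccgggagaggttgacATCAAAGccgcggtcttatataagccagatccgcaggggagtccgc
NANOG: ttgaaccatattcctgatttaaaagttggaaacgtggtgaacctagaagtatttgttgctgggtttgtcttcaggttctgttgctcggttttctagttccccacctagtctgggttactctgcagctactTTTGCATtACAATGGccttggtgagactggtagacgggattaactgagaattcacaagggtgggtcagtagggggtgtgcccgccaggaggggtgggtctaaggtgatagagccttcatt
ASNS: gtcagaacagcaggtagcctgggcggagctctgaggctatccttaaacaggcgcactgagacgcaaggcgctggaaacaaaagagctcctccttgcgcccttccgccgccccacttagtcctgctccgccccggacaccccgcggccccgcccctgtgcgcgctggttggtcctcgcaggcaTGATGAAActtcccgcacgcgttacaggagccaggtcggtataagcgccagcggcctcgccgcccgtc

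FOXH1 is the DNA-binding partner of NODAL-activated SMADs, and its letters AATCCACA (TGTGGATT on the other strand) stand 249 to 242 bases before the start of MIXL1 and 154 to 147 before that of SP5. TCF and LEF factors carry the WNT signal, and their letters ATCAAAG stand 76 to 70 bases before MIXL1 and 109 to 103 before SP5, both on the other strand, and 46 to 40 before HAND1. In NANOG the octamer letters ATGCAAA, which OCT4 binds, stand on the other strand as TTTGCAT at 120 to 114 bases, next to the SOX letters ACAATGG at 112 to 106. ASNS holds TGATGNAA, the letters of the ATF4 element, as TGATGAAA at 68 to 61 bases. Searched on both strands in these 250-base windows, AATCCACA is in 0.681% of 27305 RefSeq promoters, ATCAAAG in 2.28%, ATGCAAA in 3.98%, ACAATGG in 2.6% and TGATGNAA in 3.19%. Among the 4349 promoters of genes compared here the shares were lower, at 0.322%, 1.2%, 2.32%, 1.47% and 1.52% in the same order. A promoter entry was found for 158 of the higher and 88 of the lower genes. AATCCACA was in 3 of the 158 (MESP2, MIXL1 and SP5) and 0 of the 88, and ATCAAAG in 6 of the 158 and 0 of the 88. The octamer was in 9 of the 158 and 6 of the 88, ACAATGG in 0 and 3, and TGATGNAA in 7 and 5, the last including ASNS and CHAC1. These are matches of letters, with no data on binding.

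Among transcription factors of the streak and organizer, 10 of 19 genes in the table were higher and 0 lower, and the median log2 ratio of all 19 was 2.38, against 0.00 for all 21579 genes. Of the 19, 13 reached 5 FPKM in either library. MIXL1, a given marker of the comparison, is among the 10 higher genes. LHX1, a LIM homeobox factor of the anterior streak, was at 0.0326 FPKM in hESC and 73.7 FPKM in CD13+/ROR2+ (ratio 6.18). EOMES and GSC, the latter the goosecoid factor of the organizer, were listed at 0 in hESC and at 71.0 and 20.2 FPKM in CD13+/ROR2+. Factors that act after them in mesoderm were also higher. MESP1 and MESP2, which start cardiac and segmental mesoderm, were listed at 0 in hESC and at 10.7 and 14.6 FPKM. SP5, a direct WNT target, was listed at 0 and at 6.06 FPKM, and HHEX, a factor of anterior endoderm, was at 0.621 and 7.43 FPKM. T, which encodes brachyury, was higher too, at 0.0485 and 7.32 FPKM (ratio 2.99), although its level in CD13-/ROR2- was 18.7 FPKM, above that in CD13+/ROR2+. LHX1 and GSC were at only 0.245 and 0.963 FPKM in CD13-/ROR2-. FOXH1 and SNAI1 did not pass the 4-fold rule, at 8.49 and 10.8 FPKM and at 1.87 and 9.62 FPKM.

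Factors of cardiac mesoderm were higher in part, with 9 of 36 higher, 0 lower and a median of 0.38 over all 36. Of these, 14 reached 5 FPKM in either library. HAND1 and GATA6 were listed at 0 in hESC and at 118 and 79.4 FPKM in CD13+/ROR2+, and GATA4 was at 0.121 and 47.4 FPKM (ratio 5.43). Of the T-box factors that shape the later heart, TBX3 was listed at 0 in hESC and at 7.19 FPKM, and TBX20 was at 0.102 and 5.17 FPKM. Others were the lateral mesoderm factor FOXF1 (0.153 and 6.15 FPKM), IRX3 (0.259 and 12.5 FPKM) and SALL1 (8.33 and 39.5 FPKM). SMARCD3, a chromatin remodelling subunit of the heart field, was at 0.587 and 5.09 FPKM and missed the rule with a ratio of 1.94. NKX2-5, the reporter's own gene, was listed at 0 in hESC and at 0.357 FPKM, and MYH6, which encodes alpha-MHC, at 0.0169 and 0.0774 FPKM.

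Markers of other lineages were read as whole lists, since a surface gate can hold more than a single cell type. Of 23 definitive endoderm genes, 10 were higher and 2 lower, with a median of 1.98 over all 23, of which 13 reached 5 FPKM. Their summed level was 101.5 FPKM in hESC and 2031.1 FPKM in CD13+/ROR2+, most of it CER1. SHH and TTR were listed at 0 in CD13+/ROR2+. SOX17, an endoderm factor, was listed at 0 in hESC and at 17.8 FPKM, and APOA2, an apolipoprotein of liver and yolk sac, was at 0.378 and 27.0 FPKM. FOXA2 and HNF4A, defining factors of endoderm, were at 3.88 and 1.65 FPKM, under the minimum, and AFP was at 0.0255 FPKM. The epithelial genes CDH1 and EPCAM, also on this list, were the 2 lower members. GATA4, GATA6, CXCR4, HHEX and CER1 are on the list and are also known from mesoderm. The part of endoderm cells in these values was not tested.

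Lists of further lineages held few genes that could be called. Only 2 paraxial, 1 neuroectoderm, 1 endothelial and blood, 1 extraembryonic, 4 neural crest, 2 germ cell and 4 heart muscle genes reached 5 FPKM in either library. Of 20 paraxial and presomitic genes, MESP2 and DLL3 were higher, DLL3, a Notch ligand, at 3.31 and 16.7 FPKM, and the summed level was 8.6 FPKM in hESC and 44.6 FPKM in CD13+/ROR2+ with MSGN1, UNCX, CDX1 and CDX2 at 0 in the latter. TBX6, a defining factor of this lineage, was at 0.174 and 4.25 FPKM, under the minimum. Of 18 neuroectoderm genes 17 were under the minimum in both libraries and the other was not called (sums 10.9 FPKM in hESC and 13.7 in CD13+/ROR2+, with SOX1 and 6 others at 0 in the latter). Of 24 endothelial and blood genes 23 were under the minimum and the other was not called (sums 21.0 and 18.1 FPKM), where PECAM1 was at 0.0212 FPKM and PTPRC at 0. Of 19 extraembryonic genes (sums 5.7 and 122.8 FPKM) only HAND1 was higher, and CDX2, CGA and 7 others were at 0. Among 12 neural crest genes SNAI2, MSX1 and MSX2 were higher, all also known from mesoderm (sums 24.1 and 43.2 FPKM, FOXD3 at 0). Among 11 germ cell genes PRDM1 and SOX17 were higher (sums 7.3 and 32.9 FPKM), and DDX4 was at 0. Of 22 heart muscle genes MYL4 and MYL7, atrial myosin light chains, were listed at 0 in hESC and at 17.3 and 7.29 FPKM, while TNNI3 was lower at 11.4 and 1.22 FPKM. TNNT2 and ACTC1 were at 3.48 and 5.67 FPKM, and the list summed to 18.1 FPKM in hESC and 43.1 FPKM in CD13+/ROR2+. The part of any of these lineages in the results was not tested. In a bulk sample, fewer cells of a type and less RNA per cell cannot be told apart. None of 29 HOX genes reached 5 FPKM; the closest were HOXB6 and HOXB2, listed at 0 in hESC and at 4.67 and 3.97 FPKM, and 18 were at 0 in CD13+/ROR2+ against 28 in hESC.

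**Figure D2:**
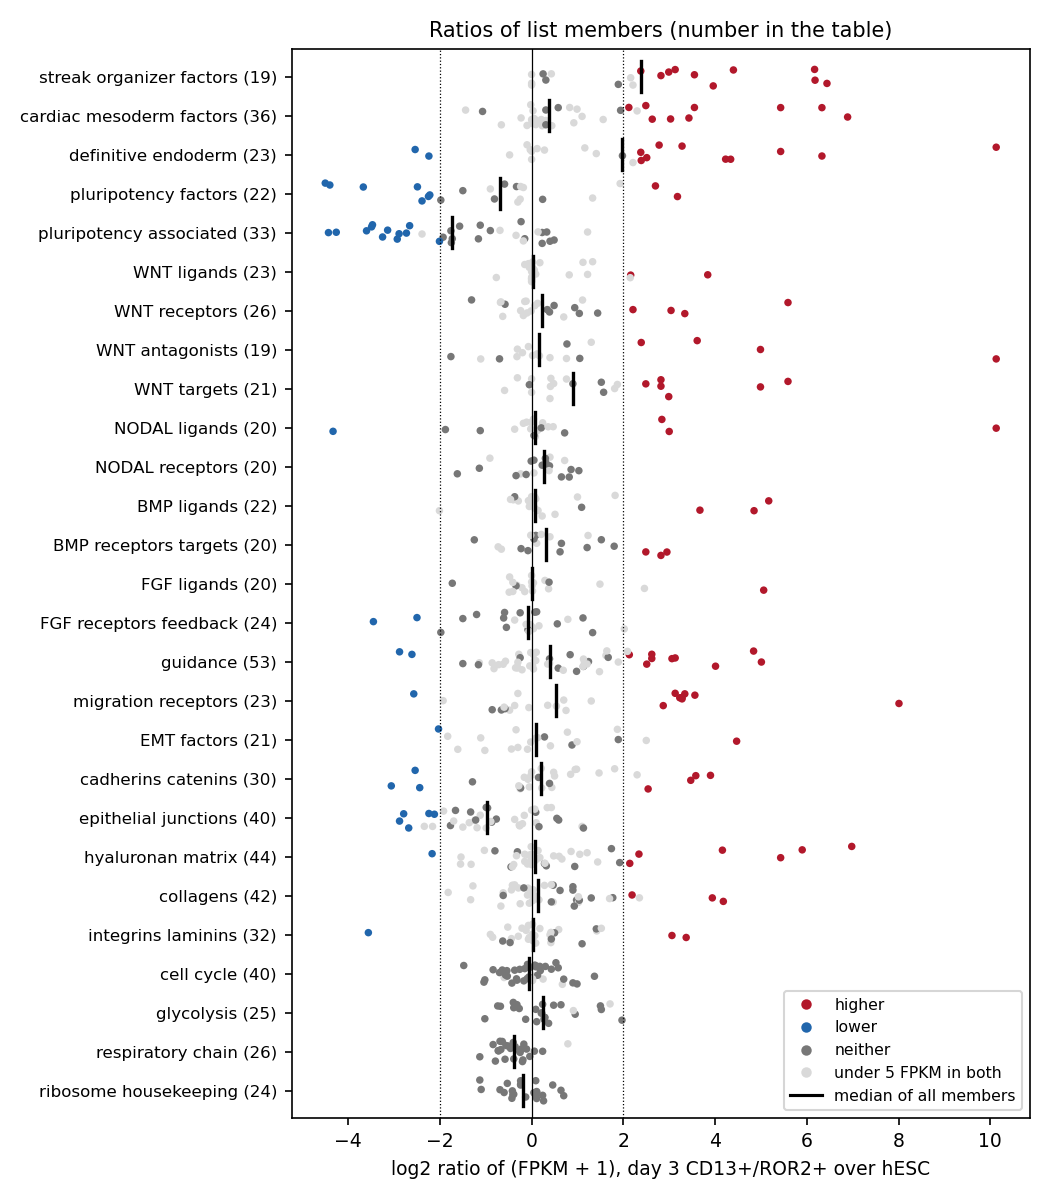
Log2 ratio of (FPKM + 1), day 3 CD13+/ROR2+ over hESC, for every member of 27 gene lists, with the number of members in the table in brackets. Each point is a gene, the short black bars are medians over all members, and the dotted lines mark 4-fold. The streak and definitive endoderm medians lie at 2.38 and 1.98, the pluripotency-associated median at -1.73 and the cell cycle median at -0.06.

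Of 23 WNT ligand genes 2 reached 5 FPKM and both were higher: WNT5A, a ligand of ROR2, at 0.0947 and 14.7 FPKM (ratio 3.84), and WNT3, the ligand that starts the streak, at 0.541 and 5.87 FPKM (ratio 2.16). WLS, which carries WNT proteins to the surface, was higher as well, at 0.926 and 28.8 FPKM (ratio 3.95). Of 26 receptor genes 12 reached 5 FPKM and 4 were higher. LGR5, the R-spondin receptor, was at 0.0527 FPKM in hESC and 49.8 FPKM in CD13+/ROR2+ (ratio 5.59), with 0.517 FPKM in the CD13-/ROR2- library. The frizzled genes FZD8 and FZD2 stood at 0.658 and 12.6 FPKM and at 1.17 and 9.05 FPKM. ROR2, the remaining member, encodes a protein the cells were sorted on, so its call is no independent result. FZD7, at 12.3 and 35.0 FPKM, and ROR1, at 14.7 and 9.47 FPKM, were not called.

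Of 19 secreted WNT antagonist genes 4 were higher and 0 lower, 8 reached 5 FPKM, and the median over all 19 was 0.17. DKK1, which blocks the LRP co-receptors, was at 0.0910 and 33.8 FPKM (ratio 4.99), and its relative DKK4 at 0.146 and 13.0 FPKM, with a listing at 0 in CD13-/ROR2-. FRZB was at 0.194 and 5.27 FPKM, and CER1, a given marker of the comparison, is the fourth. SFRP1 was at 21.9 and 38.0 FPKM and SFRP2 at 99.2 and 28.5 FPKM, neither past the rule. Of 21 target genes 6 were higher (SP5, T, LGR5, DKK1, MSX1 and MSX2), with a median of 0.90 over all 21, of which 10 reached 5 FPKM. AXIN2, a general target of the pathway, was at 2.61 and 3.79 FPKM, CCND1 at 19.4 and 18.7 FPKM and MYC at 13.6 and 26.3 FPKM, none of them called.

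Of 20 NODAL and TGF-beta ligand and inhibitor genes 3 were higher and 1 lower, 9 reached 5 FPKM, and the median over all 20 was 0.07. NODAL itself was at 4.06 FPKM in hESC and 7.32 in CD13+/ROR2+, and its co-receptor TDGF1 at 145 and 171 FPKM, both short of 4-fold. TGFB1 was higher at 0.461 and 10.6 FPKM, and FST, the activin trap follistatin, at 0.951 and 13.0 FPKM. CER1, a given marker of the comparison, is the remaining higher gene. The left-sided antagonists LEFTY1 and LEFTY2 stood at 39.1 and 9.92 FPKM and at 14.5 and 16.9 FPKM; reads of these close copies may be shared. INHBE, an activin subunit, was lower at 22.8 and 0.183 FPKM (ratio -4.33). None of 20 receptor, SMAD and cofactor genes was called, of which 14 reached 5 FPKM, with SMAD7 at 6.12 and 6.36 FPKM and SKIL at 32.4 and 9.87 FPKM.

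BMP4 and BMP2 were higher, and the ID genes, common targets of BMP signalling, were not called. BMP4 was at 1.17 and 77.1 FPKM (ratio 5.17) and BMP2 at 0.106 and 30.8 FPKM (ratio 4.85). BMPER, a secreted BMP binder, was at 0.497 and 18.0 FPKM (ratio 3.67), which made 3 of 22 ligand and antagonist genes higher and 0 lower. Only 5 of the 22 reached 5 FPKM, and the median over all 22 was 0.07. Of 20 receptor and target genes, SMAD6, an inhibitory SMAD induced by BMP, was higher at 1.19 and 15.9 FPKM, together with MSX1 (6.08 FPKM, listed at 0 in hESC) and MSX2 (0.158 and 5.50 FPKM). ID1 was at 20.7 FPKM in hESC and 17.4 in CD13+/ROR2+, ID2 at 3.07 and 8.44 FPKM and ID3 at 9.77 and 15.8 FPKM. The ID genes were at 192, 44.3 and 39.1 FPKM in CD13-/ROR2-, where BMP4 was at 18.98 FPKM. Within these 3 libraries the highest BMP4 and the highest ID1 therefore fell in different fractions.

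Among FGF genes 1 of 20 ligands was higher and 2 of 24 receptor and feedback genes were lower, and 4 and 15 of these lists reached 5 FPKM. FGF17, a ligand of the FGF8 family, was at 0.142 FPKM in hESC and 37.1 FPKM in CD13+/ROR2+ (ratio 5.06), with 0.328 FPKM in the CD13-/ROR2- library. FGF8, needed for cells to leave the streak, was listed at 0 and at 4.49 FPKM, just under the minimum. FGF2, the ligand hESC make and depend on, was at 5.33 and 0.903 FPKM (ratio -1.73). On the receptor and feedback list DUSP6, an ERK phosphatase induced by FGF, was lower at 39.5 and 6.15 FPKM, and FGFBP3, which releases FGF from matrix, at 20.5 and 0.961 FPKM. The ERK targets ETV4 and ETV5 were at 17.4 and 3.66 FPKM and at 10.3 and 2.99 FPKM, short of the rule (ratios -1.98 and -1.50). SPRY4, another feedback inhibitor, was at 66.7 and 62.9 FPKM. FGFR1 was at 16.7 and 13.9 FPKM.

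On the retinoic acid list 2 of 19 genes were higher and 0 lower, and 4 of them reached 5 FPKM. CYP26A1, the hydroxylase that clears retinoic acid, was at 0.0926 FPKM in hESC and 86.4 FPKM in CD13+/ROR2+ (ratio 6.32), with 0.947 FPKM in the CD13-/ROR2- library. CRABP2, which delivers retinoic acid to its receptors, was at 4.23 and 41.0 FPKM, while its relative CRABP1 was at 47.1 and 24.1 FPKM. ALDH1A2, the enzyme that makes retinoic acid in mesoderm, was listed at 0 in hESC and at 0.0179 FPKM. LRAT, which stores retinol as ester and is not on that list, was lower at 16.7 and 0.335 FPKM (ratio -3.73). Only 4 of 25 Notch genes and 2 of 13 hedgehog genes reached 5 FPKM and could be called, and of these DLL3 alone was.

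**Figure D3:**
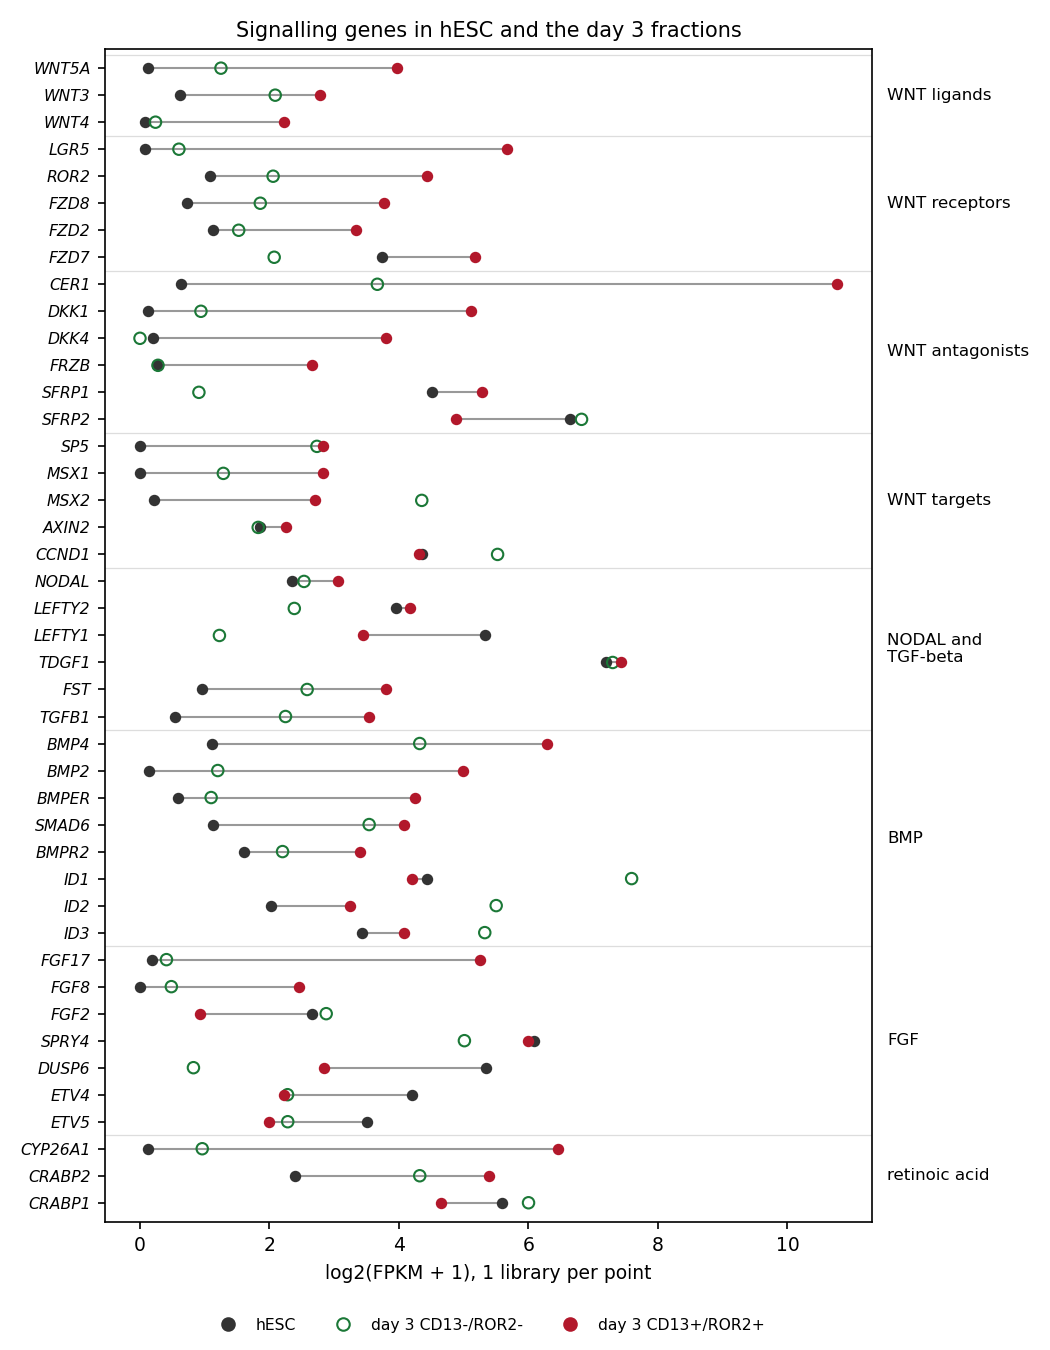
Levels of signalling genes as log2(FPKM + 1) in hESC (black), day 3 CD13-/ROR2- (open green) and day 3 CD13+/ROR2+ (red), 1 library per point, with a line from hESC to CD13+/ROR2+. CER1, LGR5, FGF17 and CYP26A1 are far to the right in CD13+/ROR2+ alone, and ID1 is highest in CD13-/ROR2-.

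PDGFRA, a growth factor receptor gene of mesoderm, was at 0.478 and 13.3 FPKM (ratio 3.28), whereas its ligand gene PDGFA was at 12.0 and 0.267 FPKM (ratio -3.36). In CD13-/ROR2- the pair stood as in hESC, with PDGFRA at 0.516 and PDGFA at 19.4 FPKM. A like pair was CXCR4, at 0.156 and 10.2 FPKM (ratio 3.28), and CXCR7, at 0.236 and 8.03 FPKM, against their ligand CXCL12 at 18.7 and 2.31 FPKM (ratio -2.57). ERBB4, a neuregulin receptor of the heart, was at 0.0496 and 20.2 FPKM (ratio 4.34), and the co-receptors NRP2 and NRP1 at 1.34 and 28.9 FPKM and at 0.140 and 5.55 FPKM. IGF2, a growth factor of mesoderm, was at 0.282 and 14.0 FPKM, and IGFBP2, which binds it, was lower at 51.0 and 9.28 FPKM. KDR, the VEGF receptor of vessel and heart progenitors, was at 13.3 and 8.04 FPKM and FLT1 at 8.94 and 4.47 FPKM, neither called. In all, 5 of 37 genes of the PDGF, VEGF, IGF and ERBB families were higher and 2 lower, with a median of -0.10 over all 37, of which 15 reached 5 FPKM.

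Of 53 ephrin, semaphorin, plexin, slit and netrin genes 9 were higher and 2 lower (median 0.39 over all 53, of which 21 reached 5 FPKM), and of 23 migration receptors 8 were higher and 1 lower (median 0.54, with 12 at 5 FPKM or more). PLXNA2, a semaphorin receptor, was at 0.0966 and 34.3 FPKM (ratio 5.01), and SEMA6D, a ligand for plexin A receptors that acts in heart development, at 0.186 and 33.1 FPKM (ratio 4.84). SEMA6A, the related ligand, went the other way at 44.5 and 5.17 FPKM (ratio -2.88), and was at 91.2 FPKM in CD13-/ROR2-. Of Eph receptors, EPHB2 (1.46 and 19.5 FPKM), EPHA4 (0.949 and 16.1 FPKM), EPHA2 (2.09 and 12.5 FPKM) and EPHB3 (0.442 and 7.21 FPKM) were higher, and EPHA1 (16.2 and 1.83 FPKM) was lower. FLRT3, an adhesion and repulsion protein of migrating mesoderm, was at 0.161 and 17.6 FPKM. NTN4, SEMA5A, NCAM1 and S1PR3 were higher as well, the last 2 at 1.16 and 24.6 FPKM and at 0.597 and 14.0 FPKM. APLNR, a given marker of the comparison, is among the 8 higher migration receptors.

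CDH1, the epithelial cadherin gene, was at 23.2 FPKM in hESC and 3.15 in CD13+/ROR2+ (ratio -2.54), and CDH2, the neural cadherin of mesoderm, at 4.86 and 63.9 FPKM (ratio 3.47). CDH11 (0.640 and 18.6 FPKM), PCDH7 (0.807 and 9.48 FPKM) and PCDH10 (0.720 and 24.7 FPKM) joined CDH2, while CDH3 (20.3 and 2.92 FPKM) and PCDH1 (21.3 and 1.67 FPKM) joined CDH1. Of 30 cadherin and catenin genes 4 were thus higher and 3 lower, with a median of 0.21 over all 30, of which 11 reached 5 FPKM. The catenin CTNNB1 was at 33.7 and 44.4 FPKM. In CD13-/ROR2- CDH1 was at 45.0 and CDH2 at 6.28 FPKM. PCDH10, at 17.9 FPKM, was also above 5 FPKM there, while CDH11 and PCDH7 were at 0.730 and 2.71 FPKM.

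Of 40 epithelial junction genes 5 were lower and 0 higher, with a median of -0.97 over all 40, of which 18 reached 5 FPKM. The lower genes included CLDN4, EPCAM, MAL2, a membrane trafficking protein of epithelia, at 27.8 and 2.90 FPKM, and CLDN7, a claudin of tight junctions, at 17.6 and 1.92 FPKM. Desmosome and other junction genes were not called: DSP was at 13.2 and 20.4 FPKM, JUP at 12.4 and 18.5 FPKM, DSG2 at 25.0 and 28.1 FPKM and TJP1 at 26.3 and 28.1 FPKM. CLDN6 remained at 26.5 FPKM from 52.3 FPKM. Among 21 genes that govern the epithelial to mesenchymal change, of which 5 reached 5 FPKM, SNAI2, a repressor of CDH1, was higher at 0.177 and 25.0 FPKM (ratio 4.47), and ESRP1, an epithelial splicing factor, lower at 31.8 and 7.02 FPKM. SNAI1, ZEB2 and ZEB1 were at 9.62, 4.68 and 2.80 FPKM from 1.87, 0.00681 and 0.0395 FPKM, and none was called.

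Of the cytoskeleton, VIM, the intermediate filament vimentin, was at 10.5 FPKM in hESC and 272 in CD13+/ROR2+ (ratio 4.57). Keratins of simple epithelia were not called, with KRT8 at 18.8 and 36.1 FPKM, KRT18 at 73.3 and 46.7 FPKM and KRT19 at 15.4 and 63.7 FPKM. NEFL and NEFM, neurofilament genes, were lower at 0.531 and 0.991 FPKM from 8.30 and 11.8 FPKM. FLNC, a filamin of striated muscle, and RHOB, a small GTPase, were the 2 higher genes of 38 on the actin list. Of these 38, 30 reached 5 FPKM. FLNC was at 0.472 and 13.7 FPKM and RHOB at 3.62 and 25.3 FPKM. TMOD1, which caps actin filaments in muscle, was at 0.230 and 46.6 FPKM (ratio 5.27).

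MFAP4, a microfibril protein, was at 2.85 and 486 FPKM (ratio 6.98), rank 39 by level in CD13+/ROR2+. HAS2, the hyaluronan synthase of cardiac jelly, was at 0.922 and 114 FPKM (ratio 5.90), and HAPLN1, which links hyaluronan to proteoglycan, at 0.196 and 50.6 FPKM (ratio 5.43). HAS3, another hyaluronan synthase, was lower at 6.05 and 0.567 FPKM, and VCAN, the proteoglycan that HAPLN1 binds, was at 35.7 and 25.9 FPKM and not called. FBN2, an embryonic fibrillin, stood at 1.61 and 45.7 FPKM, SPARC at 24.8 and 113 FPKM and TNC at 0.201 and 5.10 FPKM. FN1, fibronectin, was at 14.6 and 58.1 FPKM and fell just short, with a ratio of 1.92. Of 44 genes on this list 6 were higher and 1 lower, 15 reached 5 FPKM, and the median over all 44 was 0.08.

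Collagens, receptors for matrix and heparan sulfate enzymes each had a few calls. COL5A2, COL5A1 and COL1A2 were the 3 higher of 42 collagen and collagen-processing genes (15 reached 5 FPKM, median 0.13 over all 42), at 1.91 and 51.8 FPKM, 0.632 and 24.0 FPKM and 5.14 and 27.1 FPKM. Of 32 integrin and laminin genes 2 were higher and 1 lower, with a median of 0.02 over all 32, of which 9 reached 5 FPKM. ITGA6, a laminin receptor chain of epithelia, was lower at 34.7 and 2.02 FPKM (ratio -3.56). ITGA5, the fibronectin receptor chain, was higher at 2.88 and 31.3 FPKM (ratio 3.06), as was ITGA9 at 1.14 and 21.2 FPKM. Their partner ITGB1 was at 37.4 and 23.8 FPKM. The sulfatases that edit heparan sulfate went opposite ways, with SULF2 at 4.25 and 29.6 FPKM and SULF1 at 6.01 and 0.495 FPKM. Of the 3-O-sulfotransferase genes, HS3ST3A1 at 0.983 and 16.5 FPKM, HS3ST3B1 at 1.42 and 8.95 FPKM and HS3ST1 at 1.01 and 8.50 FPKM were higher, and the glypican GPC3 was lower at 20.6 and 3.44 FPKM. SERPINE2, a secreted protease inhibitor, reached 225 FPKM from 6.07 FPKM (ratio 5.00).

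**Figure D4:**
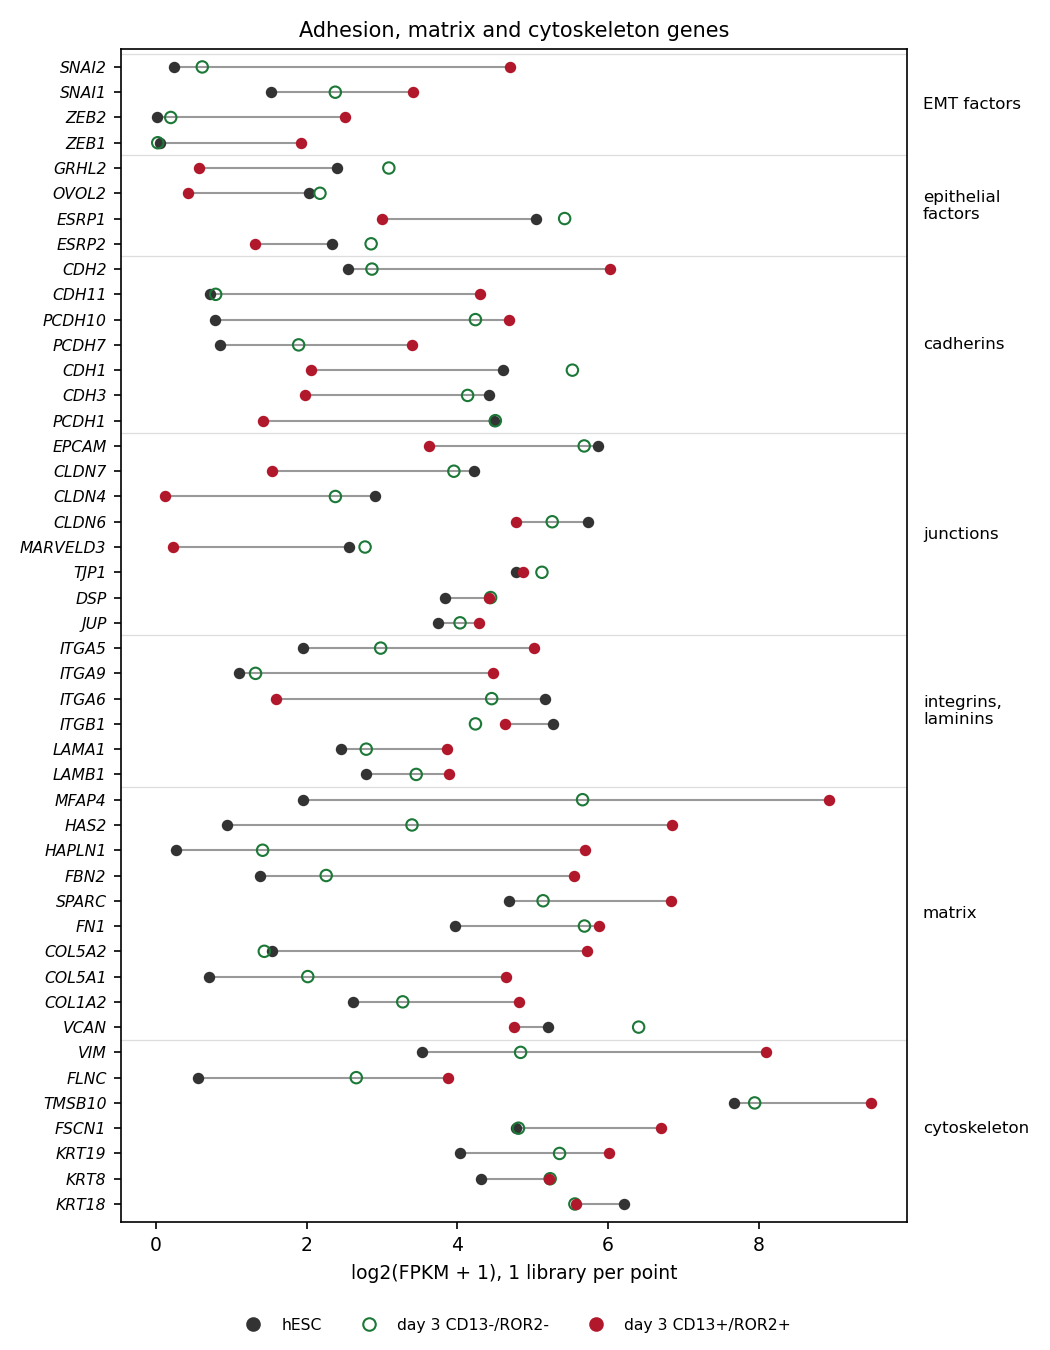
Levels of adhesion, matrix and cytoskeleton genes as log2(FPKM + 1) in hESC (black), day 3 CD13-/ROR2- (open green) and day 3 CD13+/ROR2+ (red), 1 library per point. CDH1, EPCAM and ITGA6 lie to the left in CD13+/ROR2+ and CDH2, VIM and MFAP4 to the right, and DSP, JUP and TJP1 lie close together in all 3 libraries.

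Of 22 pluripotency factors 7 were lower and 2 higher, and of 33 associated genes 12 were lower and 0 higher, with medians of -0.70 and -1.73 over all members, of which 15 and 27 reached 5 FPKM. NANOG was at 36.5 and 0.660 FPKM (ratio -4.50), and SOX2 at 26.3 and 0.295 FPKM (ratio -4.40), both further down than POU5F1, which stayed at 11.2 FPKM. PRDM14 was at 11.7 and 1.66 FPKM, DPPA4 at 229 and 39.8 FPKM and ZSCAN10 at 18.0 and 2.63 FPKM. Other factors of this list did not move past the rule, among them SALL4 at 31.9 and 37.9 FPKM and ZFP42 at 15.3 and 8.29 FPKM. OTX2, which also acts in the anterior epiblast, was among the 2 higher members, at 3.24 and 37.3 FPKM.

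Among associated genes TERF1, a telomere protein, was at 103 and 8.40 FPKM, ESRG, a long noncoding RNA of hESC, at 103 and 4.43 FPKM, and the surface genes CD24 and THY1 at 309.9 and 48.2 FPKM and at 83.6 and 2.94 FPKM. USP44, a deubiquitinase, and POLR3G, a subunit of RNA polymerase III, were also lower, at 2.19 and 1.32 FPKM from 34.9 and 16.7 FPKM. LIN28A, LIN28B and L1TD1, RNA-binding proteins of stem cells, remained at 50.4, 26.0 and 67.5 FPKM from 95.2, 22.0 and 152 FPKM, and were not called. Of 31 chromatin genes 1 was higher and 1 lower, and 20 reached 5 FPKM. PHC1, a Polycomb subunit, was at 54.7 and 5.32 FPKM, H2AFY2, which encodes a macroH2A histone, at 8.77 and 49.0 FPKM, and DNMT3B, a DNA methyltransferase, at 123 and 35.9 FPKM (ratio -1.75, not called).

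Growth and housekeeping lists held no called gene. None of 40 cell cycle genes was called (median -0.06, with 34 at 5 FPKM or more), with MKI67 at 13.7 and 28.2 FPKM, nor any of 25 glycolysis genes (median 0.24) or 24 ribosome and housekeeping genes (median -0.18, ratios from -1.13 to 0.70). Of the 25 respiratory chain genes of at least 5 FPKM, 23 had ratios below 0 and 2 above, with a median of -0.39 over all 26 and none called. The shift of 0.48 that an equal sum over all genes brings is larger than any of these medians.

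Genes of the amino acid response, a list added after the values were seen, were lower in CD13+/ROR2+. Of 26 genes 6 were lower and 0 higher, 22 reached 5 FPKM, and the median over all 26 was -1.23. ASNS was at 43.4 and 8.96 FPKM (ratio -2.16), CHAC1, which breaks down glutathione, at 22.9 and 1.09 FPKM, and DDIT3, a stress factor, at 9.27 and 0.857 FPKM. SESN2, STC2 and INHBE complete the 6. ATF4, whose protein drives these genes, was at 68.8 and 72.1 FPKM. In CD13-/ROR2- ASNS was at 22.8 and CHAC1 at 5.85 FPKM, between the other two libraries.

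Metallothioneins, metal-binding proteins read on another list added in the same way, were lower at 6 of 11 genes. Only these 6 reached 5 FPKM, and the list summed to 282.1 FPKM in hESC and 9.1 FPKM in CD13+/ROR2+. MT1X was at 146 and 6.37 FPKM, MT2A at 33.0 and 1.48 FPKM, and MT1G at 37.6 FPKM in hESC and listed at 0 in CD13+/ROR2+. These close copies may share reads. Some small RNA host genes were also lower, SNHG8 at 105 and 16.5 FPKM and C6orf48 at 197 and 29.9 FPKM, 2 of 13 on their list, and 12 of the 13 reached 5 FPKM, all with ratios below 0. Immediate early genes, which respond to handling and sorting as well as to growth factors, had 3 of 23 higher and 1 lower. Of the 23, 12 reached 5 FPKM. EGR1 was at 2.16 and 31.5 FPKM and IER3 at 4.16 and 51.3 FPKM, while FOS was at 1.79 and 8.68 FPKM and not called. The part of handling in these values was not tested.

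Several further genes stood out by their ratios. The peptide, antiviral and annexin lists used here were added after the values were seen. GRP, the gastrin-releasing peptide gene, was listed at 0 in hESC and at 68.1 FPKM, and NTS, the neurotensin gene, was at 3.20 and 59.3 FPKM. GYPB and GYPE, glycophorin genes of red cells, were at 73.7 and 30.3 FPKM from a listing at 0 and 0.0472 FPKM; they are close copies whose reads may be shared. COLEC12, a scavenger receptor, was at 0.290 and 52.4 FPKM (ratio 5.37), and SLCO2A1, a prostaglandin transporter, at 0.646 and 65.3 FPKM (ratio 5.33). OAS1 and APOBEC3G, antiviral genes from a list with 3 of 18 higher, were at 0.0693 and 19.5 FPKM and at 0.739 and 28.6 FPKM. Of the 18, 7 reached 5 FPKM. Annexin and S100 genes with their partners were higher at 5 of 20, and 13 of the 20 reached 5 FPKM. Among the higher ones were ANXA6 at 4.42 and 34.6 FPKM and MYOF at 0.218 and 12.4 FPKM. At the other end PTPRZ1, a receptor phosphatase, was at 51.0 and 1.42 FPKM (ratio -4.43) and PMAIP1, a pro-apoptotic BCL2 family gene, at 87.5 and 3.53 FPKM (ratio -4.29).

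Many genes that set CD13+/ROR2+ apart from hESC were low in the later sorted fractions. Of the 232 higher genes 103 (44.4%) were under 5 FPKM in all 4 day 7 and day 14 libraries, against 697 of the 4984 genes (14%) of at least 5 FPKM in CD13+/ROR2+. Of the 138 lower genes 93 (67.4%) were under 5 FPKM in all 4, against 838 of the 4822 genes (17.4%) of at least 5 FPKM in hESC. These shares compare genes chosen on the first 2 libraries and were not tested, and that choice can itself set them apart. Lower genes were picked for a low level in CD13+/ROR2+, and the labels name all 4 later fractions as CD13+/ROR2+ too. Higher genes were picked for a low level in hESC. The sets they are read against also hold genes of like level in both libraries. CYP26A1, LHX1, EOMES, LGR5 and GRP were among the higher genes that were low later, with LGR5 at 0.133, 0.503, 0.0521 and 0.135 FPKM in day 7 NKX2-5+, day 7 NKX2-5-, day 14 aMHC+ and day 14 aMHC-. GATA4 held its level at 51.2, 47.1, 47.6 and 53.2 FPKM in the same order. TMOD1 was at 34.2, 5.26, 18.8 and 17.5 FPKM, and MYL4, from 17.3 FPKM on day 3, reached 1169, 223, 808 and 481 FPKM. HAPLN1 and APLNR were above 5 FPKM in only day 7 NKX2-5- among these 4, at 14.6 and 13.9 FPKM. NANOG and ESRG were under 1 FPKM in all 4.

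**Figure D5:**
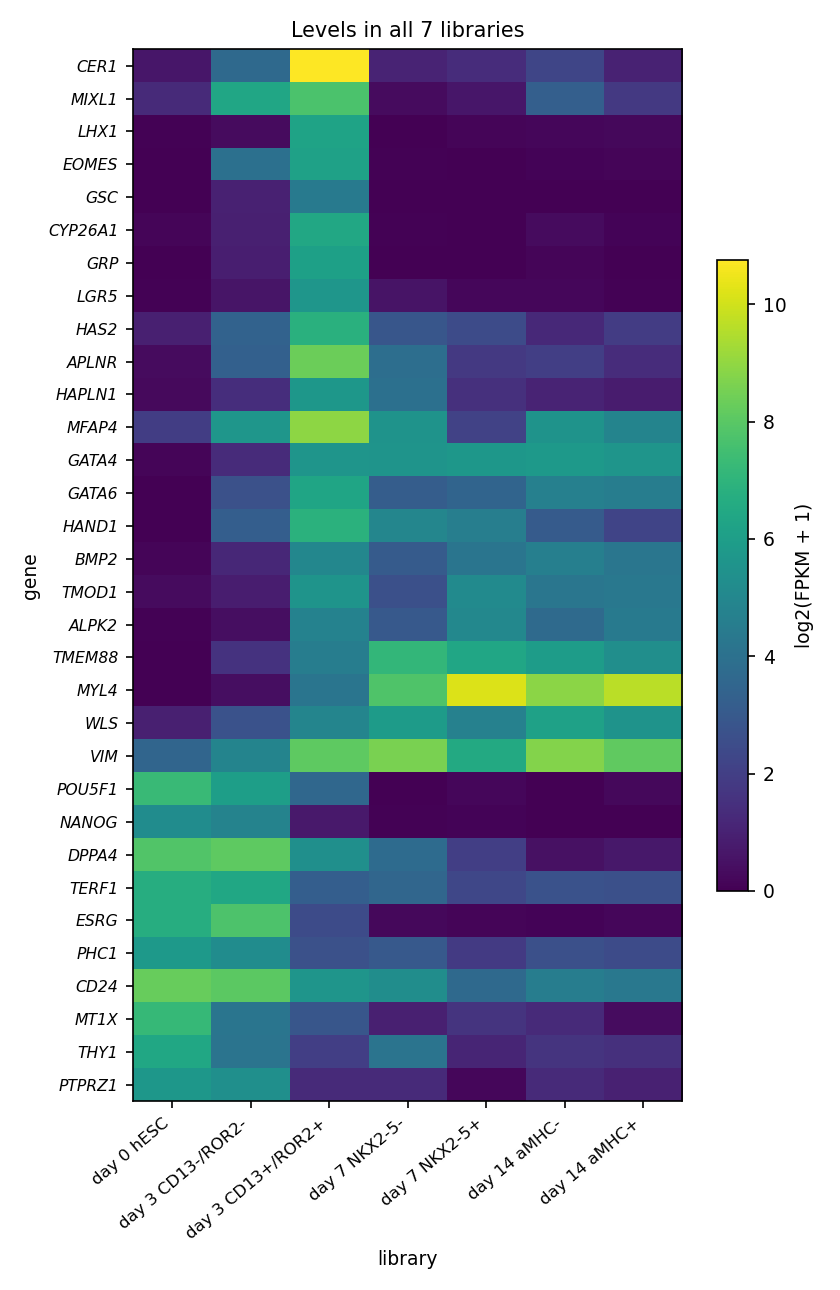
Levels of named genes in all 7 libraries as log2(FPKM + 1), shown by colour, 1 library per column. CER1, LHX1, EOMES, GRP and LGR5 are high in day 3 CD13+/ROR2+ and low in the later columns, GATA4 stays high after day 3, MYL4 is highest after day 3, and POU5F1, NANOG and ESRG are high in hESC and day 3 CD13-/ROR2-.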

How the data were processed

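RNA of 7 libraries, 1 per group, was prepared with a TruSeq v2 kit and read in single-end mode on a HiSeq, per the labels' protocols. The kit does not mark strand, so reads of overlapping and antisense genes cannot be told apart. The authors deposited 1 table of FPKM values with gene symbols. Per the submitters' processing notes, Cufflinks and hg19 were used. For versions, the aligner, the annotation and multiply mapped reads, the entry is "not given in the sources used here". Counts are not known, so no interval or floor is given. The table holds 23368 genes, of which 106 with blank cells were left out, and 1683 small RNA (MIR, SNOR, SCARNA, RNU) and HIST symbols were dropped. FPKM divides by length and by a library total, so very short genes can take a large part of a column.

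From these values log2 ratios with a pseudocount of 1 FPKM were computed for genes of at least 5 FPKM in the higher library, and a size of at least 2 stood in place of a test (Python 3.11.15, pandas 2.3.3, numpy 2.4.6, matplotlib 3.10.9). The script was tested on simulated data. Of 1163 symbols on 50 gene lists 1154 are in the table. Most genes named are list members, those past the size rule first. Others are the 20 genes with the highest and 20 with the lowest ratios, without LOC, LINC and open reading frame names. Genes nearest the 4-fold limit are also named. WLS, GYPE, TMEM88, ALPK2 and CHCHD2 were named outside this rule, with their values known. Members and lists were chosen with earlier results of these data known, and 6 lists and the promoter motifs after the values here were seen. List medians in the text cover all members in the table rather than those of at least 5 FPKM as first planned, since a member that passes only through its higher library had to differ. Promoters are from RefSeq on GRCh38.p14 by symbol. Alternatives tried were 2 pseudocounts, no minimum level, 3 scalings, genes at 0 left out and a size rule of 1. In the line's label the number in the NKX2-5 reporter's name differs in each of the 7 samples (an upward count). The labels were read as 1 line with the reporter at NKX2-5. Some genes are not reported here by name.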

Additional observations from a re-analysis of the deposited data

How the results depend on the processing

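The 232 higher and 138 lower genes became 274 and 192 with a pseudocount of 0.1, and 86 and 37 with a pseudocount of 5. Without the minimum level they were 275 and 162. With equal sums over all genes they were 338 and 91, with equal sums without small RNA and histone genes 246 and 125, and with median-ratio scaling 209 and 137. With every gene left out that had a 0 in a library compared they were 207 and 135, and with a size rule of 1 they were 572 and 504. The 576 named genes include many that were never called, so losses among them are not a share of calls. Of these genes 95 lost their call with a pseudocount of 5 and 16 with equal sums over all genes. With median-ratio scaling 8 lost it, and 19 did without genes listed at 0. Genes no longer compared, called or not, numbered 0, 10, 25 and 19 in the same order, and the called ones count as losses. Over all genes, a pseudocount of 5 kept 86 of the 232 higher and 37 of the 138 lower calls. Of the genes still compared, 0 of the called ones changed direction, but these settings could not have shown a change. Pseudocounts and left-out genes do not alter the sign of a ratio. The largest shift by scaling was 0.48, against a size of at least 2 for a call. Among list medians over members of at least 5 FPKM that of ion transport genes went from -1.06 to 0.14 with equal sums over all genes, and that of heart muscle genes from 2.42 to -0.34 without genes listed at 0. No paired analysis was possible because each group has 1 library, and for the same reason no replicate could be left out. Relative depth limits genes of low level in hESC most if that library is the shallower, as the estimate from low values put it.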

Other observations

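CHCHD2, a mitochondrial protein gene, was listed at 0.171 FPKM in hESC and 23.3 FPKM in CD13+/ROR2+, and at 26.1, 19.1, 30.4, 0.084 and 0 FPKM in day 3 CD13-/ROR2-, day 7 NKX2-5+, day 7 NKX2-5-, day 14 aMHC+ and day 14 aMHC-. It was singled out after its values were seen.

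Imprinted genes, read as a list of 20, had 3 higher members in CD13+/ROR2+ and 0 lower. Of the 20, 7 reached 5 FPKM. All 3 higher members lost their call with a pseudocount of 5. PEG10, a retrotransposon-derived gene, was at 20.1 FPKM in hESC and 95.2 FPKM in CD13+/ROR2+, SNRPN at 0.936 and 6.80 FPKM, and IGF2 at 0.282 and 14.0 FPKM. TMEM88, an inhibitor of WNT signalling in heart precursors, and ALPK2, a kinase of the heart, were among the genes that reached 20 FPKM or more on day 3 and were also at 5 FPKM or more in the later fractions. TMEM88 was at 22.9 FPKM in CD13+/ROR2+ and 81.4, 138, 39.0 and 60.8 FPKM in day 7 NKX2-5+, day 7 NKX2-5-, day 14 aMHC+ and day 14 aMHC-, and ALPK2 at 26.0 FPKM and 31.4, 6.95, 20.3 and 12.1 FPKM.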
